A study of Mus musculus with 12 samples.

Results

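The genes described are the 7 that encode the surface proteins most often used to sort mouse skeletal stem cells and their progeny: Thy1, Eng, Itgav, Enpep, Cd200, Tek and Ptprc. They were chosen by that role, and they are 7 of the 18193 genes that the array names through at least 1 probe set with a single gene symbol. The array carries 13 such probe sets for them, 5 for Itgav, 2 each for Eng and Ptprc and 1 for each of the others. All except Ptprc passed the filter on dim signals, so 6 of the 7 were among the 12516 genes tested.

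The study asked what JUN, a subunit of the AP-1 transcription factor, does in osteoprogenitors, the cells that give rise to bone. JUN-inducible mouse pups received doxycycline through their mother's drinking water, and cells of limb bones, skull cap, scapula, vertebrae and ribs were sorted after 2 days of induction. The sample labels name 3 sorted populations, SSC, CSP and Thy, for which the design text writes SSC, BCSP and Thy+. One array was run per sample, which gave 12 arrays of 5 mice.

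Each population had 2 arrays labelled JUN and 2 labelled -JUN, read here as with and without induction. The arrays with JUN came from mice 4 and 7 in every population. Those without came from mice 3 and 3b in CSP and Thy and from mice 3 and 10 in SSC. All mice are described with the same inducible line. The promoter and cell type that drive the transgene, the age of the pups, and whether the mice without induction lacked doxycycline or the transgene are not stated. Nor are the antibodies and gates of the sort.

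Flow cytometry sorts read the proteins of these genes. In the widely used scheme, cells that carry CD45 (encoded by Ptprc), the red cell marker Ter119 or Tie2 (Tek) are removed as blood and vessel cells, and cells that carry the integrin alpha V chain (Itgav) are kept. The stem cell then has CD200 (Cd200) and lacks Thy1, 6C3 (Enpep) and CD105 (Eng), its progeny BCSP gains CD105, and the Thy population carries Thy1 and CD105. Where this scheme was followed, a difference in the Thy1 or Eng transcript between the populations is a check of the sort and no separate finding.

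Deposited values are log2 expression values normalised across arrays with RMA, and all levels and differences below are on that scale. Array medians lay between 7.65 and 7.76, and "above the median" refers to the array's own median. Jun itself read 12.06 to 13.65 over the 12 arrays, so its level does not separate the arms, and whether its probe set reads the transgene is not given. Xist, transcribed from an inactive X, read 12.49 to 13.20 in mouse 3 (3 arrays) and at most 7.29 in every other mouse. Of 12 skeletal lineage genes on the array, 10 were above the median in all 12 arrays, among them Col1a1 and Col1a2, the chains of type I collagen, and the limb mesenchyme factors Prrx1 and Twist1. The exceptions were Sp7, the osteoblast factor osterix, above it in 6 arrays, and the cartilage matrix gene Matn3, in 7. The added polyadenylated control RNAs averaged 7.74 to 9.95 in SSC, 8.89 to 10.42 in CSP and 10.03 to 10.87 in Thy. Without JUN these controls averaged 7.74 and 8.28 in SSC, 8.89 and 9.62 in CSP and 10.50 and 10.03 in Thy. With JUN they averaged 9.95 and 8.92, 10.03 and 10.42, and 10.87 and 10.03 in the same order. The arms thus did not overlap in SSC and CSP. The part of this in any difference between populations or between arms was not tested.

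Eng and Tek are the members whose calls between populations changed with the pairing of arrays by mouse, and both are classically driven in endothelium by ETS factors, which bind around a GGAA core. Their promoter windows in RefSeq (GRCm38.p6), from 250 bases before to 50 after the annotated start, are shown 5′ to 3′ on the plus strand, with the core in capitals on either strand (GGAA or TTCC).
Eng, chr2:32646345-32646644: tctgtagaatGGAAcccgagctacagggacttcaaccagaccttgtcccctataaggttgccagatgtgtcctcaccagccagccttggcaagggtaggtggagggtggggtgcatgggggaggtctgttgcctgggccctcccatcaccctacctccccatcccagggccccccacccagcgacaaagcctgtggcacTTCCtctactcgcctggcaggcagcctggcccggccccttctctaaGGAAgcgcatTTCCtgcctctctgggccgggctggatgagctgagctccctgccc
Tek, chr4:94739039-94739338: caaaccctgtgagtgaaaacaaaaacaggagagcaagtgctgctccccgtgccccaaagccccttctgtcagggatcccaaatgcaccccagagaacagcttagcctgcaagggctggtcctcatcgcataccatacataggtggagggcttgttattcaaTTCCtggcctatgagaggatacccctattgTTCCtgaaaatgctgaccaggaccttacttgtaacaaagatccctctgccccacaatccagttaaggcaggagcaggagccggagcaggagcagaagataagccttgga
The Eng window holds 4 cores and the Tek window 2, and 96% of all 32851 windows of the same length hold at least 1, so the core does not set these genes apart. The AP-1 motif TGANTCA and the related CRE motif TGACGTCA, searched on both strands, were in none of the 7 windows that RefSeq lists for 6 of the members (Ptprc has 2). Of all windows, 7.81% hold the first and 1.79% the second.

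Thy1 and Eng were the members that differed between populations. Thy1 was far higher in Thy than in SSC or CSP, and Eng was higher in CSP and in Thy than in SSC. Itgav, Enpep and Cd200 passed in no comparison, Tek passed only when arrays of the same mouse were paired, and Ptprc stayed in the dim range of every array. In limma with Benjamini-Hochberg adjustment over all 12516 genes, 1 of 6 members passed between CSP and SSC, against 0.431% of all genes. Between Thy and SSC 2 of 6 passed (0.391% of all genes), and between Thy and CSP 1 of 6 (0.991%). The same members were the ones whose 4 arrays did not overlap between populations, a pattern shown by 4.06%, 7.59% and 6.11% of all genes in these comparisons.

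**Figure D1:**
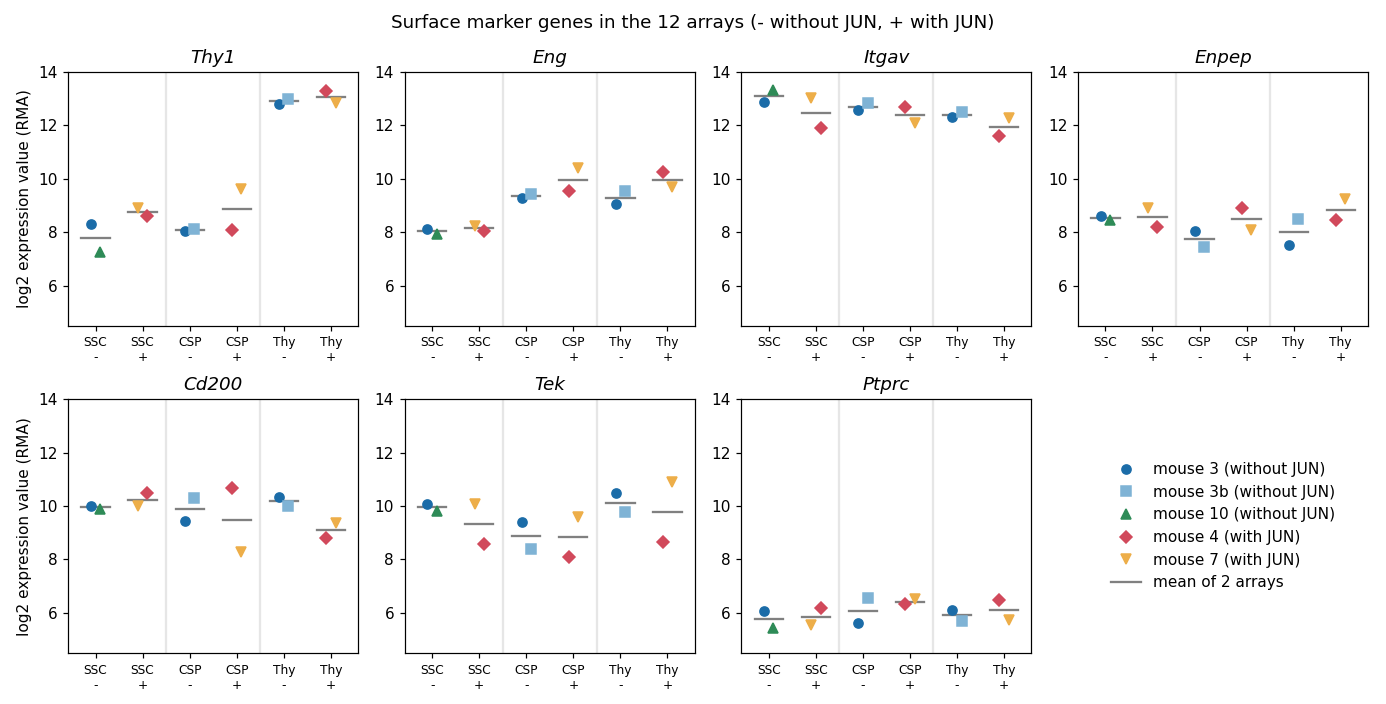
Log2 expression value (vertical axis) of the 7 genes in each array, with the 6 groups on the horizontal axis (- without JUN, + with JUN), 1 point per array, colour and shape by mouse, and a grey line at the mean of 2 arrays. Thy1 is at 12.80 or more in all 4 Thy arrays and at 9.63 or less elsewhere, Eng is lowest in the 4 SSC arrays, and Ptprc stays at or below 6.54.

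Thy1 encodes a small glycolipid-anchored surface protein of T cells, neurons and mesenchymal cells. In SSC without JUN the 2 arrays read 8.31 and 7.28, and with JUN 8.62 and 8.90. The CSP arrays read 8.04 and 8.11 without and 8.09 and 9.63 with JUN. In Thy the values were 12.80 and 12.99 without and 13.30 and 12.83 with JUN, so all 4 Thy arrays lay above all 8 others. The means were 8.28 ± 0.71, 8.47 ± 0.78 and 12.98 ± 0.23 in SSC, CSP and Thy (SD, n = 4 each).

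Thy exceeded SSC by 4.70 in Thy1 (SE 0.34, 26.0-fold, adjusted p = 0.000108 in limma), the lowest p of all genes tested in that comparison. It exceeded CSP by 4.51 (22.8-fold, adjusted p = 7.69e-05), and by 3.19 to 5.21 within each of the 4 mice that gave both populations. SSC and CSP did not differ beyond their spread, with a difference of 0.19 and a 95% interval from -0.55 to 0.93. These are bulk samples, in which fewer cells that carry a transcript and less transcript per cell cannot be told apart. The Thy1 transcript was above the median in 11 of 12 arrays, among them 3 of 4 SSC and all CSP arrays.

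Markers of pericytes, the contractile cells around small vessels, and of smooth muscle were partly higher in Thy. Of 9 measured, 6 were higher and 3 lower in Thy than in SSC, and 2 passed, both as higher. Against CSP 7 were higher and 2 lower, and 4 passed, all as higher. Rgs5, a regulator of G protein signalling typical of pericytes, was higher by 3.24 against SSC and 2.66 against CSP (adjusted p = 0.000300 and 0.00132). Notch3, a receptor of mural cells, was higher by 1.72 and 1.42 (adjusted p = 0.0379 and 0.0429). Kcnj8, a potassium channel subunit, and smooth muscle actin Acta2 were higher than in CSP by 2.21 and 1.16 (adjusted p = 0.0259 and 0.0274). The 3 genes lower in Thy than in SSC were the contractile genes Cnn1 (-1.15, adjusted p = 0.0619), Myh11 (-0.54) and Tagln (-0.25), and none of them passed. The median difference of the list was 0.22 against SSC and 1.42 against CSP, where all genes stood at 0.091 and 0.041. The mean of the list per array was 10.59 to 11.10 in SSC, 10.27 to 10.44 in CSP and 11.28 to 11.95 in Thy. Its part in the Thy1 difference was not tested.

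By Pearson correlation over the 12 arrays, the genes most like Thy1 were Septin4 (0.97), Higd1b (0.97), Tubb4a (0.96), Esam (0.95) and Akr1c18 (0.95). The arrays share populations and mice, and the step between Thy and the rest enters each coefficient. Septin4 read 10.15 to 10.62 in Thy and 8.39 to 9.62 elsewhere, and Akr1c18, a steroid-reducing enzyme, read 11.03 to 12.86 in Thy and 7.06 to 9.28 elsewhere.

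Eng encodes endoglin (CD105), a co-receptor for TGF-beta and BMP ligands that is abundant in endothelium. In SSC it read 8.14 and 7.95 without JUN and 8.04 and 8.24 with JUN, a narrow range just above the array medians. In CSP it read 9.30 and 9.41 without and 9.54 and 10.40 with JUN. The Thy arrays read 9.07 and 9.53 without and 10.24 and 9.69 with JUN. Every CSP and Thy array lay above every SSC array, and CSP and Thy overlapped.

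The SSC mean of Eng was 8.09 ± 0.12, against 9.66 ± 0.50 in CSP and 9.63 ± 0.49 in Thy (SD, n = 4 each). CSP exceeded SSC by 1.57 (SE 0.24, 2.97-fold, adjusted p = 0.0132 in limma), and Eng was 1 of only 6 genes that passed as higher in that comparison, while 48 passed as lower. Thy exceeded SSC by 1.54 (SE 0.24, 2.91-fold, adjusted p = 0.0287). CSP and Thy differed by -0.028, with a 95% interval from -0.55 to 0.50.

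Within mice, Eng was higher in CSP than in SSC in 3 of 3 (by 1.16 to 2.16) and higher in Thy than in SSC in 3 of 3 (by 0.93 to 2.20). With the mouse as a fixed block in limma the differences were as large, 1.58 and 1.55, but did not pass, at adjusted p = 0.122 and 0.121. That fit called fewer genes in all, 0.0639% and 0.032% of those tested. Without the 3 arrays of mouse 3, the only mouse with a high Xist value, the differences were 1.71 and 1.75 and again did not pass (adjusted p = 0.0777 and 0.182). Of all genes tested, 34 and 3 passed in that fit, where 54 and 49 passed in the main fit.

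The call for Eng also rested on single arrays. Against SSC, the CSP difference did not pass when SSC JUN replicate 2, SSC replicate 3 without JUN or CSP replicate 2 without JUN was left out, at adjusted p = 0.0591, 0.0520 and 0.0519. The Thy difference did not pass without any 1 of 6 arrays, namely SSC replicates 1 and 3, CSP replicate 2 and Thy replicate 2 without JUN, and SSC replicate 2 and Thy replicate 1 with JUN. Its adjusted p there was 0.0534 to 0.112. The size stayed at 1.38 to 1.70 in CSP and 1.40 to 1.67 in Thy whichever single array was left out.

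A further Eng probe set followed the same course, with a Pearson correlation of 0.94 between the 2 over the 12 arrays. It read 6.86 to 7.67 in SSC, 8.68 to 10.35 in CSP and 8.22 to 9.66 in Thy, so again no CSP or Thy array reached down to SSC. Tested among all 34945 single-symbol probe sets, of which 0.163% passed, it was higher in CSP by 2.35 (adjusted p = 0.0272). In Thy it was higher by 1.93 and did not pass (adjusted p = 0.0653, against 0.14% of probe sets that did).

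**Figure D2:**
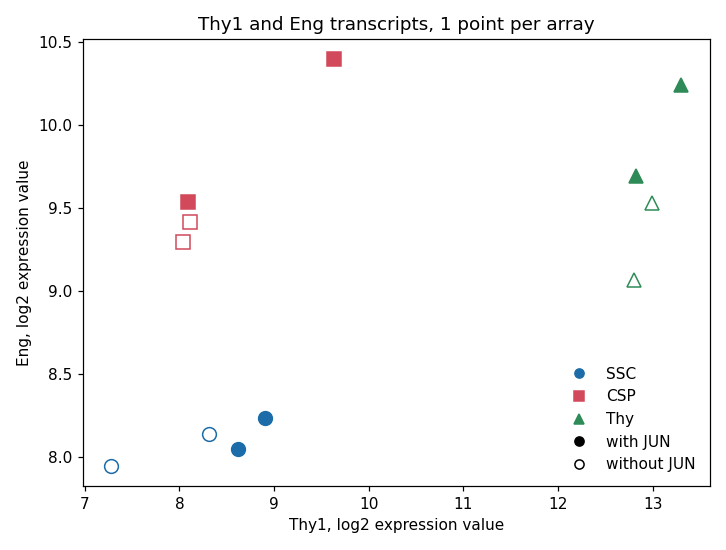
Log2 expression value of Thy1 (horizontal axis) against Eng (vertical axis), 1 point per array, colour and shape by population, filled with JUN and open without. The 4 SSC arrays lie low on both axes (Eng 7.95 to 8.24), the CSP arrays are higher in Eng (9.30 to 10.40) with 1 of them at 9.63 in Thy1, and the Thy arrays stand at 12.80 to 13.30 in Thy1.

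Endothelial markers were examined because endoglin is abundant in endothelium. Of 16 on the array 10 were tested, and 9 of these were higher in CSP than in SSC, with a median difference of 1.19 against 0.054 for all genes. One of them passed, Mmrn2, a matrix protein of endothelial cells, at 1.81 (adjusted p = 0.00995). The tight junction gene Cldn5 differed by 2.46 (adjusted p = 0.0848), Pecam1 by 1.52 and the receptor gene Tie1 by 1.45. Pecam1, Tie1 and Flt1 were above the median in no SSC array. They passed the filter only through CSP and Thy arrays, which partly set their direction and so the counts and medians against SSC. In Thy against SSC 8 of 10 were higher with a median of 0.71, and Esam, an adhesion molecule of endothelial cells, passed at 1.61 (adjusted p = 0.0379). In Thy against CSP, where Eng differed by -0.028, 8 of 10 were lower with a median of -0.53, and Esam alone passed, as higher by 1.67 (adjusted p = 0.0142).

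The mean of the endothelial list was 6.96 to 7.46 in SSC, 8.03 to 8.75 in CSP and 7.64 to 8.03 in Thy. Cdh5 and Egfl7 were above the median in all 12 arrays, Mmrn2 in 11, Erg and Esam in 10, Cldn5 in 9, Flt1 in 7 and Kdr in 6. Pecam1 was above it in 4 arrays, Tie1 in 3, and Emcn, Robo4, Vwf and Plvap in 1 each. Sox17, an arterial transcription factor, and Sox18 were above it in none. Of 19 leukocyte markers 9 were tested, and none passed. All 9 had higher mean values in CSP and in Thy than in SSC, with median differences of 0.23 and 0.65. The filter partly set this direction. Laptm5, Coro1a, Rac2, Fcer1g, S100a8, S100a9 and Spi1 were above the median in no SSC array and passed it only through CSP or Thy arrays. The mean of all 19, with no filter, was 6.32 to 6.66 in SSC, 6.37 to 7.03 in CSP and 6.84 to 7.14 in Thy. Over the 12 arrays Eng correlated with the endothelial list mean at 0.82 and with the leukocyte list mean at 0.81. The step between SSC and the other populations enters both coefficients. The part of endothelial cells or leukocytes in the Eng difference was not tested.

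**Figure D3:**
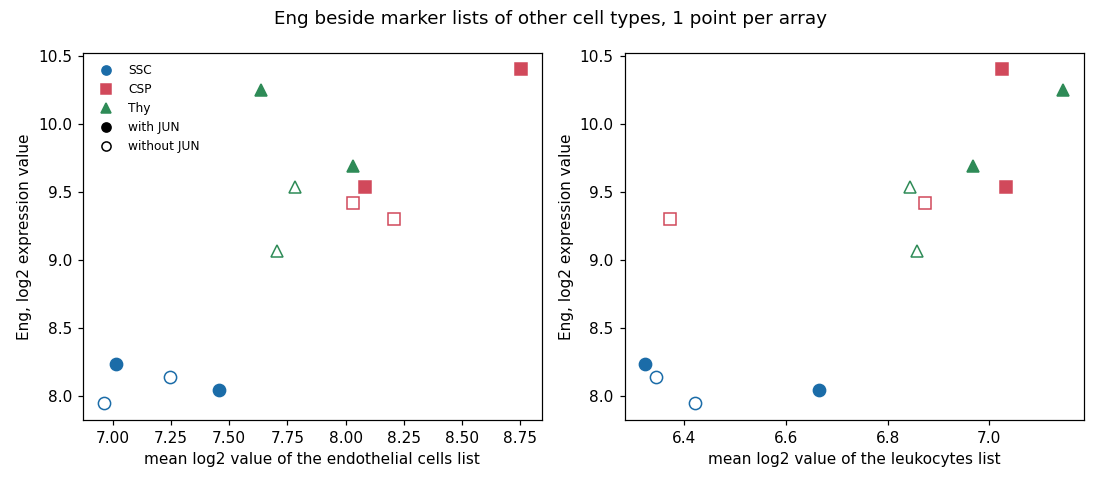
Log2 expression value of Eng (vertical axis) against the mean log2 value of the endothelial list (left) and the leukocyte list (right), 1 point per array, colour and shape by population, filled with JUN and open without. The SSC arrays lie lowest on both axes at left, with list means of 6.96 to 7.46, and the CSP arrays highest in the endothelial list, at 8.03 to 8.75.

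Of 18 genes of the endoglin receptor complex and its targets 17 were tested and none passed in any population comparison. Against SSC, 11 of the 17 were higher in CSP and 10 in Thy, with median differences of 0.13 and 0.20. Id1 and Id3, immediate targets of BMP signalling, were higher in CSP than in SSC by 0.53 and 0.56, but their arrays overlapped. Id1 read 8.95 to 11.28 in SSC and 9.66 to 10.635 in CSP, and Id3 10.80 to 12.05 and 11.52 to 12.09. Id2, of the same list, was not higher in CSP, at 10.10 to 10.96 in SSC and 10.11 to 10.43 in CSP. The type I receptor gene Tgfbr1 was lower in Thy than in SSC by a difference of -0.85 (adjusted p = 0.170 in limma). The genes most like Eng were Lpin3 (Pearson 0.92), the endothelial gene Egfl7 (0.91), Mapk13 (0.90), Trim54 (0.90) and Cngb1 (0.89). Here too the step between SSC and the other populations enters the coefficients.

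Itgav encodes the integrin alpha V chain (CD51), a receptor for vitronectin and other matrix proteins. Its brightest probe set was high in all 12 arrays. In SSC it read 12.86 and 13.33 without JUN and 11.89 and 13.04 with JUN. In CSP the values were 12.59 and 12.82 without and 12.67 and 12.08 with JUN, and in Thy 12.30 and 12.49 without and 11.58 and 12.26 with JUN. The populations overlapped, with the lowest value in Thy and the highest in SSC.

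Thy was lower than SSC in Itgav by a difference of -0.62 (95% interval -1.21 to -0.027, adjusted p = 0.265), lower in 3 of 3 mice, and did not pass. CSP differed from SSC by -0.24 (-0.83 to 0.35), and Thy from CSP by -0.38 (-0.97 to 0.21). The other Itgav probe sets did not follow this one. Their Pearson correlations with it over the 12 arrays were 0.47, -0.53, -0.015 and -0.078, and their Thy minus SSC differences were -0.085 to -0.24. Array values of Itgav thus depend on the probe set read.

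Of 13 integrin partners and matrix ligands of alpha V tested, 2 passed as higher in Thy than in CSP and none in the other population comparisons. Itgb3, the beta 3 chain that pairs with alpha V in the vitronectin receptor, was higher by 1.29 (adjusted p = 0.0373), and vitronectin itself, Vtn, by 2.12 (adjusted p = 0.0394). Itgb8, another partner chain, was lower in CSP than in SSC by -2.77 and did not pass (adjusted p = 0.181). The genes most like Itgav were Ppp2r3c (Pearson 0.98), Wwtr1, which encodes the mechanosensitive cofactor TAZ (0.96), Rasa1 (0.96), Paip2 (0.96) and Echdc1 (0.95).

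Enpep encodes 6C3, an aminopeptidase that trims angiotensin II and marks stromal and early B cells. It read 8.59 and 8.44 without JUN and 8.20 and 8.91 with JUN in SSC. CSP arrays read 8.04 and 7.46 without and 8.89 and 8.10 with JUN, and Thy arrays 7.51 and 8.48 without and 8.45 and 9.26 with JUN. It was above the median in 10 of 12 arrays, and the 3 populations overlapped. No population difference passed: CSP minus SSC was -0.41 (95% interval -1.11 to 0.28), Thy minus SSC -0.11 (-0.81 to 0.59) and Thy minus CSP 0.30 (-0.39 to 0.998).

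Of 8 tested genes of angiotensin peptide processing, Ace alone passed. This gene of the angiotensin-converting enzyme was higher in Thy than in SSC by 1.42 (adjusted p = 0.0185) and than in CSP by 1.21 (adjusted p = 0.0134). Anpep, another aminopeptidase, differed by 1.22 between Thy and SSC (adjusted p = 0.107). The genes most like Enpep reached lower coefficients than those of the other members, with Zbtb24 and Tbc1d8 at 0.78, Med27 at 0.77, Cd93 at 0.76 and Rgs19 at 0.75. Without the 2 arrays farthest from the median of Enpep they stood at 0.48 to 0.64.

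Cd200 encodes a membrane glycoprotein that restrains myeloid cells through its receptor. In SSC it read 9.99 and 9.91 without JUN and 10.48 and 9.99 with JUN. CSP arrays spread widely, with 9.45 and 10.29 without and 10.67 and 8.27 with JUN. Thy arrays read 10.35 and 9.99 without and 8.80 and 9.37 with JUN. All 12 were above the median, and SSC had the narrowest range.

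The means of Cd200 in SSC, CSP and Thy were 10.09 ± 0.26, 9.67 ± 1.06 and 9.63 ± 0.68 (SD, n = 4 each), and no difference passed. CSP minus SSC was -0.42 (95% interval -1.41 to 0.58), Thy minus SSC -0.46 (-1.46 to 0.53) and Thy minus CSP -0.042 (-1.04 to 0.95). The 3 CD200 receptor genes on the array were above the median in no array. The genes most like Cd200 were Adk (0.91), Lrrc57 (0.89), S100b (0.89), Tanc1 (0.87) and Akap17b (0.87). S100b, a calcium-binding protein of glia and cartilage, stood at 0.87 without the 2 arrays farthest from the median of Cd200, where Adk stood at 0.74.

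Tek encodes Tie2, the receptor for angiopoietins on endothelial and some perivascular cells. It was above the median in all 12 arrays, in a sort whose usual scheme removes cells with the protein. SSC arrays read 10.09 and 9.81 without JUN and 8.58 and 10.08 with JUN. CSP arrays read 9.40 and 8.38 without and 8.10 and 9.57 with JUN, and Thy arrays 10.49 and 9.78 without and 8.64 and 10.88 with JUN. The populations overlapped, and the 3 arrays of mouse 4 and the CSP array of mouse 3b were the lowest of the 12.

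Without pairing, Thy exceeded CSP in Tek by 1.09 (SE 0.51, 95% interval -0.018 to 2.19), which did not pass (adjusted p = 0.425). The difference was 0.67 without Thy JUN replicate 2 and 1.51 without Thy JUN replicate 1. Within mice Thy was higher than CSP in 4 of 4, by 0.54 to 1.40 (mean 1.09 ± 0.38, SD, n = 4). With the mouse as a fixed block in limma this difference passed at adjusted p = 0.0481, in a fit that called 0.999% of all genes. Over all genes, deviations from the group mean correlated at 0.092 or -0.21 between CSP and Thy arrays of 1 mouse. The paired Tek call was not repeated with single arrays left out. CSP was lower than SSC in 3 of 3 mice, with a paired difference of -0.61 that did not pass (adjusted p = 0.768).

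**Figure D4:**
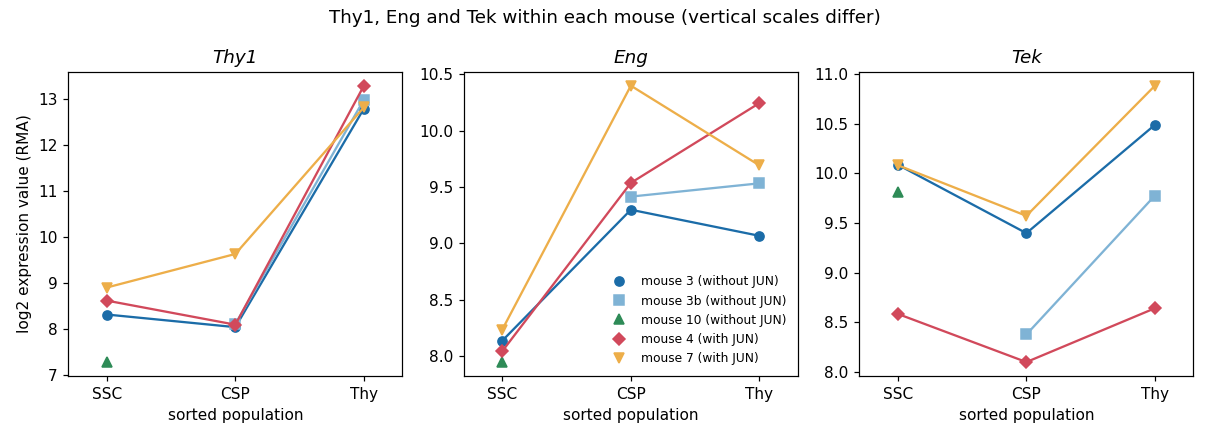
Log2 expression value (vertical axis, with its own scale in each panel) of Thy1, Eng and Tek in the sorted populations (horizontal axis), with a line joining the arrays of 1 mouse. Tek rises from CSP to Thy in all 4 mice that gave both, by 0.54 to 1.40, and Eng rises from SSC to CSP in all 3.

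Tek did not move with the endothelial list, with which it correlated at -0.20 over the 12 arrays. It ran against the skeletal lineage list, which shares genes with the chondrocyte list, at -0.82, and against the osteoblast list at -0.49. It also ran against the chondrocyte list, at -0.80. The mean of that list was 12.80 to 13.0 in SSC JUN replicate 1, CSP replicate 2 without JUN and CSP JUN replicate 1, where Tek read 8.10 to 8.58, and 10.75 or less in the other 9, where Tek read 8.64 or more. The 8.64 was Thy JUN replicate 1, whose list mean was 9.86, and the next lowest Tek value was 9.40. Thy JUN replicate 1 came from mouse 4, as did SSC JUN replicate 1 and CSP JUN replicate 1. The part of cartilage cells in the Tek values was not tested. Among ligands and regulators of Tie2, 5 of 7 were tested and none passed in any comparison. The ligand genes Angpt1 and Angpt2 were above the median in all 12 arrays, while Tie1, the related receptor of endothelium, was so in 3. Angpt2 was higher in Thy than in CSP by 0.88 (adjusted p = 0.0631). The genes most like Tek were Gphn (0.87), Dmrt2 (0.87), Hmga2-ps1 (0.86), Pcdh20 (0.85) and Opcml (0.84).

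Ptprc encodes CD45, the phosphatase on all nucleated blood cells. It was below the median in every array in both of its probe sets. The brighter one read 6.08 and 5.45 without JUN and 6.18 and 5.54 with JUN in SSC, 5.63 and 6.54 without and 6.33 and 6.51 with JUN in CSP, and 6.13 and 5.71 without and 6.47 and 5.72 with JUN in Thy. The 3 populations overlapped. Since it did not pass the filter, its differences come from the fit of all 18193 genes: 0.44 for CSP minus SSC, 0.20 for Thy minus SSC and -0.25 for Thy minus CSP. Values this dim carry little information about the direction of a difference.

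Of 19 leukocyte markers on the array, 10 were above the median in no array. Lyz2, the lysozyme of macrophages and neutrophils, was above it in 11 arrays. All 9 red cell genes were below the median in every array. The kinases that CD45 acts on in blood cells, Fyn and Src, were bright in all 12 arrays, as in many other cell types. The genes most like Ptprc, Srrm4 (0.91), Sncb (0.91), Gfra4 (0.90), Fam151a (0.90) and Wdfy4 (0.90), are listed for a probe set in the dim range.

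Other surface markers used for mesenchymal sorts gave a comparison for the members. Of 14 tested, Itga6, the laminin receptor chain, passed as lower in CSP than in SSC by -1.53 (adjusted p = 0.0115) and as higher in Thy than in CSP by 1.12 (adjusted p = 0.0396). Mcam (CD146), an adhesion molecule of perivascular cells, passed as higher in Thy than in CSP by 1.95 (adjusted p = 0.00863). Kit, a receptor of blood progenitors, was above the median in no array.

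JUN induction changed no member past the threshold. With 2 arrays against 2 in each population, 0 of 6 members and 0% of all genes passed in each of SSC, CSP and Thy, in their average and in the test of whether the difference varied between populations. At an unadjusted p under 0.05 in limma there were 813, 288 and 380 genes in SSC, CSP and Thy, and 2048 for the average, 2 of them members. Non-overlap of the arrays says little here, since 38.4% of all genes did not overlap in SSC, 31.2% in CSP and 28.6% in Thy. Among the members this held for Thy1 in SSC, for Eng and Enpep in CSP, and for Eng, Itgav and Cd200 in Thy.

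The average set 6 arrays of mice 4 and 7 against 6 arrays of mice 3, 3b and 10, in a fit with no term for the mouse. Arrays of 1 mouse thus counted as replicates of induction, which was given per mouse. Differences between these mice cannot be told apart from JUN, and mouse 3, the only one with a high Xist value, was without JUN. Averaged over the populations, Thy1 was higher with JUN by 0.64 (95% interval 0.038 to 1.24, unadjusted p = 0.0390, adjusted p = 0.298 in limma). Its differences were 0.96 in SSC, 0.79 in CSP and 0.17 in Thy. The CSP value rested on JUN replicate 2, without which it was 0.021, and the average was then 0.43. In SSC it ran from 0.45 to 1.48 when single arrays without JUN were left out. Eng was higher by 0.46 (0.031 to 0.89, adjusted p = 0.297), with 0.098, 0.61 and 0.67 in the same order. Enpep was higher by 0.54 (-0.024 to 1.11), with 0.035, 0.74 and 0.85. None of these differences passed, and all genes had a median difference of 0.066.

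Itgav was lower with JUN by -0.48 on average (-0.96 to 0.0041), with -0.64, -0.33 and -0.48 in SSC, CSP and Thy. Another of its probe sets went the opposite way, by 0.58, so the direction is not settled. Cd200 was lower by -0.40 (-1.21 to 0.41), and its largest difference was -1.08 in Thy (SE 0.64, adjusted p = 0.985). Tek differed by -0.35 (-1.25 to 0.55). A change of 1 lies inside the averaged intervals of Thy1, Enpep, Cd200 and Tek. Within single populations it also lies inside those of Eng in CSP (-0.18 to 1.40) and Itgav in SSC (-1.58 to 0.31). The arrays therefore do not show that JUN left any of the tested members unchanged.

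**Figure D5:**
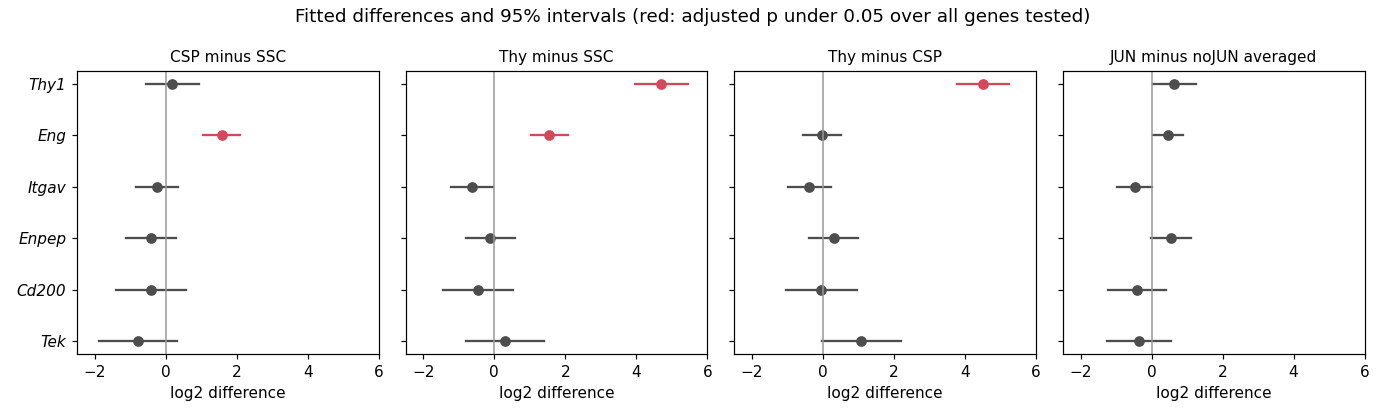
Fitted log2 differences (horizontal axis) with 95% intervals for the 6 members tested (vertical axis) in the 3 population comparisons and in the average of JUN minus no JUN, red where the adjusted p is under 0.05. Thy1 stands at 4.70 and 4.51 in the comparisons of Thy and Eng at 1.57 and 1.54 in those against SSC, and no member is red for JUN.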

How the data were processed

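Each deposited value is a log2 expression value of 1 probe set. The submitters' processing notes name RMA, with its software and settings not given in the sources used here. RMA forces arrays to 1 distribution and compresses dim differences. Precision rests on the number of arrays.

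Of 45101 probe sets 64 controls were left out, and 34945 carried 1 gene symbol in the platform annotation, 932 several and 9160 none. A probe set was kept when above its array's median in at least 2 arrays, and the brightest kept one stood for its gene (12516 genes). limma 3.58.1 in R 4.3.3 (lmFit, eBayes, two-sided, threshold 0.05) fitted population and induction over all 12 arrays (8 residual degrees of freedom), and for JUN within a population the 6 group means with 6. Intervals are 95%. Replicate numbers in the labels do not pair the arms, but titles name the mouse. Arrays of 1 mouse therefore form pairs across populations, although for mice 3 and 7 dated and undated titles were joined, which the labels do not settle. Deviations of the 10 same-mouse pairs correlated at -0.21 to 0.43. With 2 arrays per group the deviations mirror each other, so several pairs repeat the same value and the 10 are not independent.

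The members and the gene lists were chosen with earlier results of these data known. Named genes are all members, up to 4 of lowest p per list and comparison, and the 5 genes most like each member, beside genes that show which cells were sorted. Nothing shows that the samples were prepared separately, so p-values measure the spread between these arrays. The scripts were tested on simulated data. Alternatives covered the filter, the probe set rule, array centring, variance moderation, the block, and leaving out each array or mouse 3. Protein sequences were not used here.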

Additional observations from a re-analysis of the deposited data

Results flagged for a closer look

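A sample far from the 3 others of its population was sought in 21 sets of 4 arrays (7 genes in 3 populations) with Dixon's test, which flags about 1 set in 20 by chance, and 2 sets met it. Thy1 read 9.63 in CSP JUN replicate 2, from mouse 7, while the other CSP arrays read 8.04 to 8.11. The same array had the highest Eng value (10.40) and the highest endothelial list mean (8.75) of all 12 and the lowest Cd200 value (8.27). Cd200 read 10.48 in SSC JUN replicate 1, from mouse 4, while the other SSC arrays read 9.91 to 9.99. That array had the lowest Itgav (11.89) and Tek (8.58) values of SSC and the highest chondrocyte list mean (13.0) of all 12.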

How the results depend on the processing

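The Thy1 calls held under every alternative run, and no member passed for JUN under any. With the mouse as a replicate block, 0 members passed between CSP and SSC, 1 between Thy and SSC and 2 between Thy and CSP (Tek added), and Thy1 in CSP minus SSC turned to -0.086. As a random block for the average of JUN it changed no call. Without mouse 3, 0 members passed between CSP and SSC and 1 between Thy and SSC. Of all genes 34 and 3 passed there, against 54 and 49 in the main fit. Enpep in Thy minus SSC turned to 0.21 and Eng in Thy minus CSP to 0.040. Fitting only the 2 populations compared left 1 member between Thy and SSC (Eng at adjusted p = 0.0633 in limma). With the mean of the kept probe sets of a gene, the JUN difference in SSC turned to -0.086 for Eng and 0.16 for Itgav. Filter, centring and moderation changed no direction or call.

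Leaving out 1 array at a time left 0 to 1 members called between CSP and SSC and 1 to 2 between Thy and SSC. Directions turned only in uncalled differences. Between CSP and SSC these were Thy1 (-0.13 to 0.45) and Cd200 (-0.87 to 0.031). Between Thy and SSC they were Enpep (-0.34 to 0.13) and Tek (-0.11 to 0.73), and between Thy and CSP Eng (-0.17 to 0.16) and Cd200 (-0.49 to 0.41). For JUN they were Enpep (-0.32 to 0.39) and Tek (-1.37 to 0.13) in SSC, Cd200 (-1.60 to 0.79) and Tek (-0.79 to 0.68) in CSP, and Thy1 (-0.069 to 0.40) and Tek (-1.49 to 0.75) in Thy. The cause was not tested. The number of arrays limits the precision, and Ptprc was never above the array median.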
